A study of Mus musculus with 8 samples.

Results

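Immunoglobulin variable (V) segments are the gene pieces that encode most of the antigen-binding part of an antibody chain. Here they were all genes whose symbol in GENCODE M21 begins with Ighv, Igkv or Iglv and whose counts add up to 10 or more over the 8 libraries. This rule took 130 of 348 V symbols among 48831 genes in the count tables. They comprised 66 of 185 heavy chain, 61 of 160 kappa and 3 of 3 lambda segments. Of the other V symbols, 144 had a count of 0 in every library and 74 had a total above 0 and under 10. The annotation calls 130 of the 348 symbols pseudogenes, and none of these reached the threshold. The segments were thus chosen by the measured counts, and their levels are given as a description. Just inside the threshold lay Ighv1-63, Ighv5-16 and Ighv11-2 (total 10 each), and just outside lay Ighv1-20 (9.5), Ighv1-84 (8.66), Ighv6-6 (8) and Igkv1-88 (8).

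The tissue was vomeronasal epithelium, which lines the pheromone-sensing organ of the nose and holds its sensory neurons, from C57BL/6J mice aged 8 weeks. RNA of the whole tissue was sequenced from 2 male and 2 female libraries that each pooled 2 mice and are described as non-flushed, and from 2 female and 2 male libraries that each came from 1 mouse and are described as flushed. The labels name no treatment and no genetic change in any group. The shared protocol text states that blood was flushed out with heparin in all mice, which goes against the description of the pools, and the descriptions were followed. The pools were sequenced in lane 4 and the flushed libraries in lane 6 of differently dated run folders (20130604 and 20130814), so that preparation, number of mice per library, lane and run cannot be told apart. Each library held between 18763557 and 24965088 counts.

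Each developing B cell joins 1 V segment to short diversity (D) and joining (J) segments in its heavy chain locus, and 1 V segment to a J segment in a kappa or lambda light chain locus. The joined V exon is spliced to a constant (C) region, which sets the antibody class. All descendants of that cell keep its heavy and light V segments, so a clone carries its pair of V segments as a tag. Plasma cells, the B lineage cells that secrete antibody, hold far more immunoglobulin mRNA than resting B cells, and in mucosal tissue many make immunoglobulin A. In mice most antibodies carry a kappa light chain. In whole tissue, more cells of a type and more RNA per cell cannot be told apart, and heavy and light segments of 1 cell cannot be paired.

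The segments that led a locus in at least 1 library are shown by the last 60 bases of their GENCODE transcript on GRCm38, 5′ to 3′. This stretch ends near the point where the V segment is joined, and it shows how the leading segments differ where the antigen-binding loop begins. The capitals mark the codon of the conserved cysteine that precedes the joint, and the coordinates are those of the whole segment. The leading heavy segments were these.
Ighv8-12 (chr12:115647945-115648387, minus strand): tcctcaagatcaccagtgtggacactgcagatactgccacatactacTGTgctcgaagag
Ighv1-26 (chr12:114788372-114788805, minus strand): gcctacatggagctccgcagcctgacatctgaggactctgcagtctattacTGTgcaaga
Ighv1-72 (chr12:115757984-115758461, minus strand): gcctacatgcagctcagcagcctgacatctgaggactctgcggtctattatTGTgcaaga
Ighv1-62-2 (chr12:115446409-115446869, minus strand): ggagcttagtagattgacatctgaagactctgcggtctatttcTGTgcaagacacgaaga
Ighv1-54 (chr12:115193675-115194134, minus strand): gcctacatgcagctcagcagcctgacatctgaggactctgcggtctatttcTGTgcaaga
Ighv1-74 (chr12:115802648-115803080, minus strand): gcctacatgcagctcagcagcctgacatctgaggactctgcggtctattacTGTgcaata

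The leading kappa segments were these.
Igkv1-117 (chr6:68121046-68121827, plus strand): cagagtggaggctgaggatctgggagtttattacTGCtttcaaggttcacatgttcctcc
Igkv10-94 (chr6:68704508-68704978, minus strand): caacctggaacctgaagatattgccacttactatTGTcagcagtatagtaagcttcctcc
Igkv10-96 (chr6:68631963-68632442, minus strand): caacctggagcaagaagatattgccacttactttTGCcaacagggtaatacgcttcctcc
Igkv3-5 (chr6:70663275-70663895, plus strand): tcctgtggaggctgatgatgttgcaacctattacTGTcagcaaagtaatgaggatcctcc
Igkv8-19 (chr6:70340876-70341453, minus strand): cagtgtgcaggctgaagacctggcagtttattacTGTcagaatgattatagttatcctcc
Igkv13-85 (chr6:68930269-68930734, minus strand): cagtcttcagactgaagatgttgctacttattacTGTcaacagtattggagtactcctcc
Igkv4-91 (chr6:68768555-68769103, minus strand): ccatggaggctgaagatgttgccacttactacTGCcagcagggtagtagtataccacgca

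The leading lambda segments were these.
Iglv1 (chr16:19085017-19085500, minus strand): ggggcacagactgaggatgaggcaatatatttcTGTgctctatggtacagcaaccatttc
Iglv2 (chr16:19260401-19260859, minus strand): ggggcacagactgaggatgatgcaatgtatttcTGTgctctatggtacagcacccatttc

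Over their last 280 bases, the 6 leading heavy segments were between 51.8 and 92.9% identical in 15 pairs (median 78.6%). The 7 leading kappa segments were between 58.9 and 94.3% identical in 21 pairs (median 64.6%). Among all 130 segments, 59 shared at least 1 stretch of 100 bases with another V segment, and 85 had a count that was not whole in at least 1 library, since reads with several alignments were divided.

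A pair of segments could not be told apart by their coding ends. Ighv1-62-2 (chr12:115446409-115446869) and Ighv1-71 (chr12:115742205-115742647) have the same last 280 bases, printed once here.
Ighv1-62-2: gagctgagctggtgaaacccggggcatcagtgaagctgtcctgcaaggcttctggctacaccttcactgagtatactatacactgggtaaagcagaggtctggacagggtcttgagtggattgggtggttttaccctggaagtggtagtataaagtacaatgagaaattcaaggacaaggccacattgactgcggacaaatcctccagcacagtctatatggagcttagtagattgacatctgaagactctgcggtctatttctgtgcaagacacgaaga

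Both were high in the same library, at 692.67 counts for Ighv1-62-2 and 601.33 counts for Ighv1-71 in flushed female 2, and reads within that stretch cannot be assigned to either. Ighv1-72 and Ighv1-62-3 differ at 2 of their last 280 positions, which the capitals mark.
Ighv1-72: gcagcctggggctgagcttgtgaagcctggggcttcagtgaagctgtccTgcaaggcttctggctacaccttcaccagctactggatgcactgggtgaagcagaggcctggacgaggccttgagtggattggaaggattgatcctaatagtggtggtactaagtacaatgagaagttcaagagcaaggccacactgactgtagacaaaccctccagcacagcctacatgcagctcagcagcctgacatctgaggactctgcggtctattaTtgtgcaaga
Ighv1-62-3: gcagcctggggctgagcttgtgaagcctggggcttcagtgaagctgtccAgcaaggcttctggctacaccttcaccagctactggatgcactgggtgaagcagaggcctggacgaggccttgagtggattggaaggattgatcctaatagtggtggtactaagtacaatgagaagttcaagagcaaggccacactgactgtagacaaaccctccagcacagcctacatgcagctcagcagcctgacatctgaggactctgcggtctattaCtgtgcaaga

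Both were highest in female pool 1, at 268.33 counts for Ighv1-72 and 109.5 counts for Ighv1-62-3. Levels of these 4 segments are uncertain for this reason.

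One pool stood apart from the others in V counts. The 130 segments together had 214.83 counts in male pool 1, 145.99 in male pool 2, 1997.74 in female pool 1 and 100 in female pool 2. They had 4029.83 counts in flushed female 2, 2953.49 in flushed female 3, 6136.18 in flushed male 1 and 4654.41 in flushed male 3. In CPM, which relates counts to the scaled library size, this was 11.6, 8.38, 88.4 and 5.11 in the pools and 169, 116, 243 and 209 in the flushed libraries, in the same order. All 4 flushed libraries lay above all 4 pools. The summed level was 28.4 ± 40.1 CPM in the pools and 184 ± 54.9 CPM in the flushed libraries (SD, n = 4 each), and 8.37 ± 3.25 CPM in the 3 pools without female pool 1. Even in flushed male 1 the segments held 0.0246% of all counts.

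The pools with few V counts limited what could be seen in them. With a count of at least 1, 61 segments were detected in male pool 1, 45 in male pool 2, 95 in female pool 1 and 49 in female pool 2. In flushed libraries the number was 112 in flushed female 2, 116 in flushed female 3, 106 in flushed male 1 and 111 in flushed male 3. The 3 pools with the fewest V counts thus showed the fewest segments. A total of 12 segments were detected in all 8 libraries, 78 in all flushed libraries and 15 in all pools. All 4 pools had a count of 0 for 12 segments, and no segment had a count of 0 in all 4 flushed libraries.

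**Figure D1:**
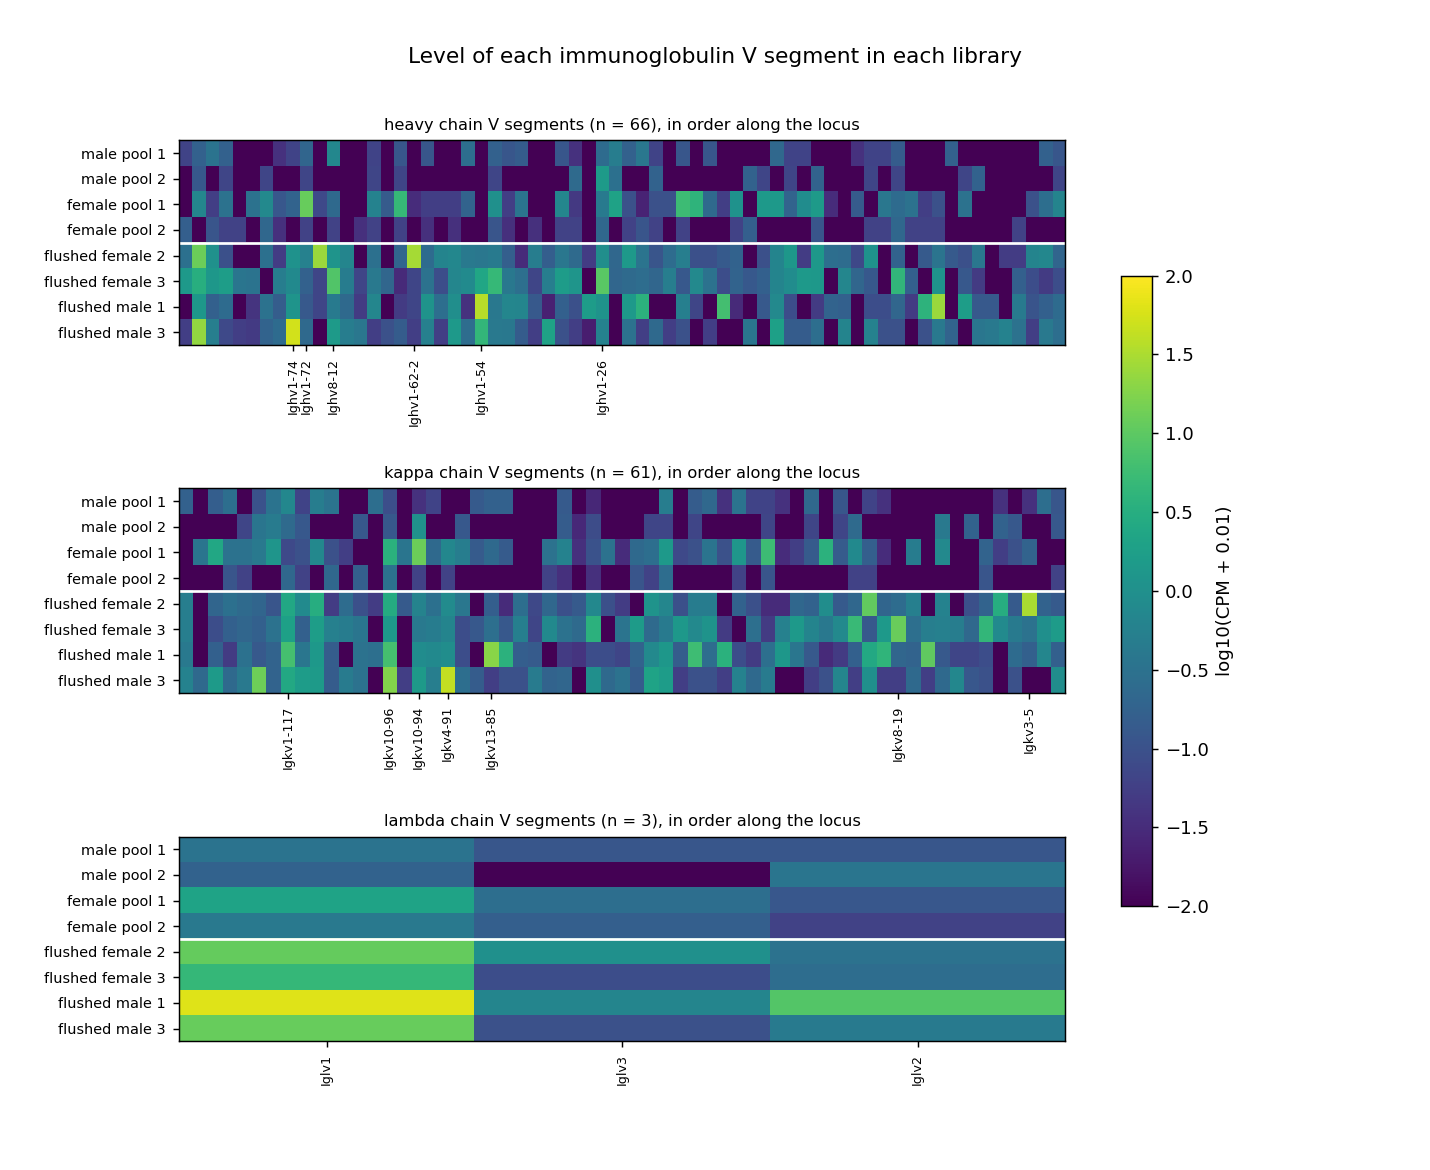
Level of each of the 130 V segments (columns, in order along each locus) in each of the 8 libraries (rows), as log10(CPM + 0.01). The white line parts the 4 pools above from the 4 flushed libraries below, and segments that led a locus in some library are named. Female pool 1 has more bright cells than the other pools, and the brightest cells of different libraries lie in different columns.

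Diversity was compared at a matched depth, as the number of segments expected when 96 V counts are drawn from each library. The expected number was 46.4 in male pool 1, 37.0 in male pool 2, 34.5 in female pool 1 and 49.0 in female pool 2. It was 27.0 in flushed female 2, 42.8 in flushed female 3, 25.6 in flushed male 1 and 22.9 in flushed male 3. At the same depth, then, 3 of 4 flushed libraries showed fewer segments than any pool, and flushed female 3 lay among the pools. The groups overlapped, at 41.7 ± 7.07 segments in the pools and 29.6 ± 8.99 in the flushed libraries (SD, n = 4 each). At 2954 counts, a depth that the flushed libraries alone reached, the expected number was 109 in flushed female 2, 116 in flushed female 3, 96.4 in flushed male 1 and 102 in flushed male 3.

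The effective number of segments, the number of equally abundant segments that would give the same Shannon diversity, was computed from counts per length. It was 50.9 in male pool 1, 26.0 in male pool 2, 32.0 in female pool 1 and 43.2 in female pool 2. In flushed libraries it was 20.2 in flushed female 2, 48.9 in flushed female 3, 18.6 in flushed male 1 and 14.5 in flushed male 3. Flushed female 3 lay between male pool 1 and female pool 2, and the other 3 flushed libraries lay below every pool. This number was not matched for depth and cannot exceed the number of segments with counts. It was 83.4% of the segments detected in male pool 1 and 88.1% in female pool 2, against 42.2% in flushed female 3.

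**Figure D2:**
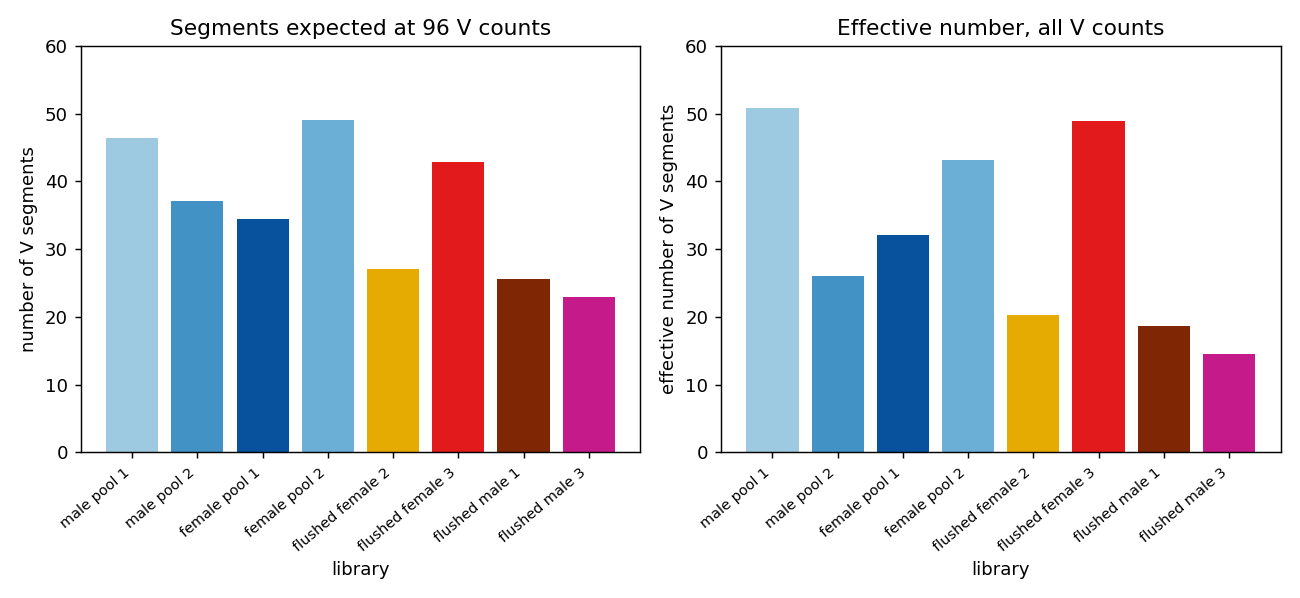
Number of V segments expected in a draw of 96 V counts (left) and effective number of V segments over all V counts (right), by library. Each bar is 1 library, so there is no error bar, with pools in blue and flushed libraries in warm colours. On both panels flushed female 2, flushed male 1 and flushed male 3 have the shortest bars.

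Dominance was described by the share of the leading segments. The leading segment held 6.26% of the length-scaled V signal in male pool 1 (Ighv8-12), 18.3% in male pool 2 (Ighv1-26), 15.4% in female pool 1 (Igkv10-94) and 7.59% in female pool 2 (Iglv1). It held 18.1% in flushed female 2 (Igkv3-5), 10.4% in flushed female 3 (Igkv8-19), 25.3% in flushed male 1 (Iglv1) and 26.4% in flushed male 3 (Ighv1-74). Taken as 1 segment, Ighv1-62-2 and Ighv1-71 held 32.6% in flushed female 2, ahead of Igkv3-5 and above the leading share of any other library. The depth behind these shares differs widely. As a share of V counts, the leader of female pool 2 rested on 8 counts (8.33%, 95% Wilson interval 4.28 to 15.6%), and that of flushed male 3 on 1185.17 counts (25.5%, 24.2 to 26.7%). The interval in male pool 2 ran from 12.5 to 25.0% on 26 counts, and it covers counting error only.

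The 5 leading segments held 24.2% of the V signal in male pool 1, 45.9% in male pool 2, 45.6% in female pool 1 and 27.0% in female pool 2. In flushed libraries they held 64.5% in flushed female 2, 35.0% in flushed female 3, 62.9% in flushed male 1 and 72.5% in flushed male 3. In flushed female 2 and flushed male 3, 3 segments held more than 50% of the signal. It took 10 segments in flushed female 3 and 15 in male pool 1.

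**Figure D3:**
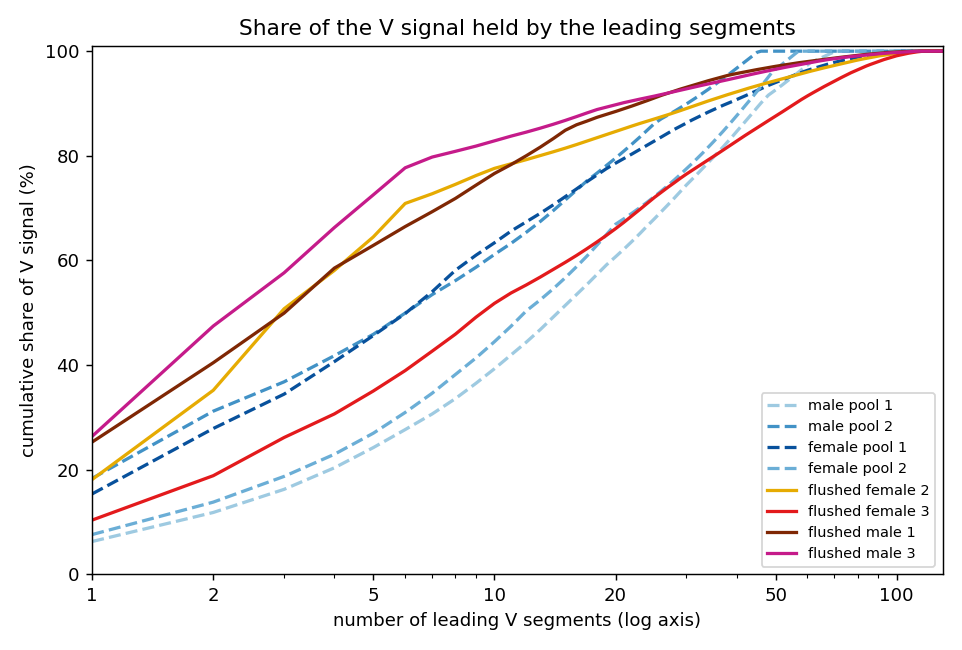
Cumulative share of the length-scaled V signal (vertical axis, %) held by the leading V segments (horizontal axis, number of segments, log scale), with 1 line per library, dashed for pools and solid for flushed libraries. The lines of flushed male 3, flushed male 1 and flushed female 2 rise fastest, reaching 72.5, 62.9 and 64.5% at 5 segments, and flushed female 3 reaches 35.0%.

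The heavy chain leaders were different segments in most libraries. Over 8 libraries, 6 segments led the heavy locus and 7 led the kappa locus. Ighv1-74 held 55.9% of the heavy signal in flushed male 3, where it had 1185.17 counts, and it had at most 1.15 CPM in any other library. Ighv1-54 held 39.4% of the heavy signal in flushed male 1, at 36.7 CPM, beside Ighv5-17 with 24.7% at 24.7 CPM. Ighv5-17 had at most 1.10 CPM elsewhere.

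In flushed female 2, Ighv1-62-2 and its twin Ighv1-71 held 32.0 and 29.2% of the heavy signal, at 29.1 and 25.3 CPM. Neither exceeded 0.0664 CPM in any of the 7 other libraries. Ighv1-82 followed there at 12.8 CPM and was also the next heavy segment of flushed male 3, at 22.6 CPM. It was thus high in more than 1 mouse.

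Flushed female 3 had no segment of that weight. Its leading heavy segment, Ighv1-26, held 17.4% at 9.33 CPM, followed by Ighv8-12 with 15.0% at 8.19 CPM and Ighv1-53 with 9.0% at 4.82 CPM. Female pool 1 was led by Ighv1-72 (25.7%, 11.9 CPM), Ighv1-9 (13.5%, 5.53 CPM) and Ighv1-62-3 (10.3%, 4.85 CPM). In the small pools the leaders rested on few counts. Ighv1-26 led male pool 2 with 26 counts (43.9% of the heavy signal) and female pool 2 with 4 counts (8.89%), and Ighv8-12 led male pool 1 with 13 counts (13.5%).

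Kappa leaders, too, were mostly different segments in different libraries. Igkv3-5 held 45.9% of the kappa signal in flushed female 2, at 31.3 CPM, and had at most 0.313 CPM in any other library. Igkv4-91 held 44.5% in flushed male 3, at 43.5 CPM, and had at most 0.912 CPM elsewhere. Igkv13-85 held 26.6% in flushed male 1, at 19.2 CPM. Igkv8-19 held 21.9% in flushed female 3, at 12.01 CPM, and had a count of 0 in all 4 pools.

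Igkv10-94 led 2 pools, with 31.5% of the kappa signal in female pool 1 (289 counts) and 24.6% in male pool 2 (18 counts). Igkv10-96 was widespread, with 0.0811, 0.115, 3.59 and 0.307 CPM in the pools and 2.92, 1.35, 6.54 and 17.9 CPM in the flushed libraries. Igkv1-117 led male pool 1 with 13 counts (11.3%), and Igkv10-96 led female pool 2 with 6 counts (15.1%).

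**Figure D4:**
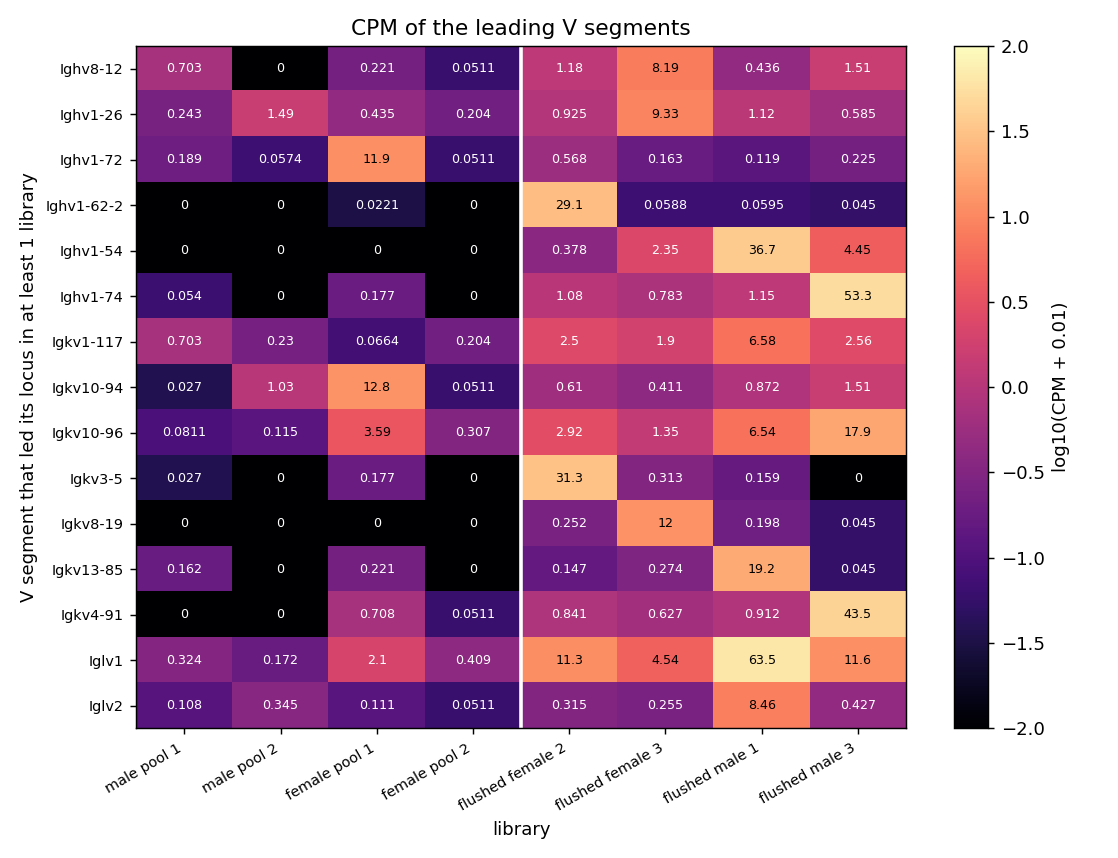
CPM of each V segment that led the heavy, kappa or lambda locus in at least 1 library (rows), in each of the 8 libraries (columns, pools left of the white line). Colour gives log10(CPM + 0.01) and the printed number the CPM. Ighv1-62-2, Igkv3-5, Ighv1-74, Igkv4-91, Igkv8-19 and Igkv13-85 each have 1 bright cell in their row, whereas Iglv1 and Igkv10-96 are above 1 CPM in every flushed library.

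Lambda segments stood out in 1 mouse. Iglv1, the most used of the few lambda V segments of the mouse, had 0.324, 0.172, 2.10 and 0.409 CPM in the pools and 11.3, 4.54, 63.5 and 11.6 CPM in the flushed libraries, in the order used above. Its 1601.83 counts in flushed male 1 brought lambda to 29.9% of V counts there, against 2.80 to 12% in the other 7 libraries. Iglv2 was also highest in that same mouse, at 8.46 CPM against at most 0.427 CPM in every other library. Its 213.33 counts there were not whole and so include divided reads, and how many of these came from Iglv1 was not tested. Iglv3 did not, with 0.654 CPM there and its highest level, 1.01 CPM, in flushed female 2. Iglc1, a lambda constant gene, had 2304 counts in flushed male 1 and between 5 and 291 in the other libraries. The lambda constant genes Iglc2 and Iglc3 had 29 and 8 counts there, and were highest in flushed female 2, at 57 and 13 counts.

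Concentration in single libraries was general among the segments. The library with the highest level held more than 50% of a segment's summed CPM for 75 of 130 segments (57.7%) and more than 80% for 24. The median segment had 55.5% of its summed CPM in 1 library. Among all 25308 genes with a total of 10 or more, the median was 16.5%, and 1.05% of genes had more than 50% in 1 library. Low counts raise such shares, so the same values were taken at a total of 100 or more. There the median was 79.3% for 43 segments and 15.5% for 19140 genes. A segment can reach that total through 1 library, as Igkv8-19 did with 306.5 counts in flushed female 3. This cut thus favours such segments, and the rise from 55.5 to 79.3% is not read further. The library that was highest was flushed female 3 for 41 segments, female pool 1 and flushed male 1 for 25 each, flushed male 3 for 22 and flushed female 2 for 17. The other 3 pools were highest for none.

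The overlap of V usage between libraries was described by the Morisita-Horn index, which is 0 for no shared segments and 1 for the same shares. Over all segments it lay between 0.119 and 0.220 for the 6 pairs of flushed libraries, between 0.227 and 0.506 for the 6 pairs of pools, and between 0.0694 and 0.444 for the 16 pairs of a pool and a flushed library. Pairs of flushed libraries shared between 1 and 4 of their 10 leading segments. The highest kappa value, 0.746, joined male pool 2 and female pool 1, both led by Igkv10-94.

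V families are groups of segments with similar sequence. The Ighv1 family, with 38 of the 66 heavy segments, held between 63.6 and 89.7% of the heavy signal in each library. Single segments set the exceptions, as in flushed male 1, where Ighv5 held 25.5% of the heavy signal, and flushed female 3, where Ighv8 held 16.3%. Among kappa families the leader was Igkv3 in flushed female 2 (51.5%), Igkv4 in flushed male 3 (47.1%), Igkv10 in female pool 1 (40.9%), Igkv13 in flushed male 1 (31.8%) and Igkv8 in flushed female 3 (28.4%). The kappa locus holds V segments in both orientations, which join by deletion or by inversion of the DNA between. The 23 segments on the plus strand held between 19.2 and 65.3% of the kappa signal, with the highest share in flushed female 2, where Igkv3-5 lies on that strand.

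Each segment was then compared between the flushed libraries and the pools in a fit across all genes, edgeR's quasi-likelihood test with sex as a covariate and Benjamini-Hochberg adjustment over 20601 genes. Of the 130 segments 54 passed the filter on low counts, and some passed only because of the group where they were high, so the counts that follow describe these 54 and not all segments. Of them 29 were higher in flushed single mice and 0 were lower, comprising 14 of 24 heavy, 14 of 28 kappa and 1 of 2 lambda segments. DESeq2 also called 0 lower, and 36 of 54 had an unadjusted p under 0.05 in the edgeR fit, in either direction. The share of all genes at that unadjusted cut is not given, so the 36 are not read further. Over all genes 22.6% were higher and 22.9% lower. The median log2 difference was 2.96 over the 54 segments and -0.02 over all genes tested. All 4 flushed libraries lay above all 4 pools for 19 of the 54 segments (27 of all 130) and for 21.3% of all genes tested.

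Fits that left out 1 library refiltered the genes and left 1 library in a group. The number of segments called in them is therefore not compared with the 29. Without female pool 2 the log2 difference was -3.95 for Ighv1-72, -4.41 for Ighv1-62-3 and -3.61 for Ighv1-22, each highest in female pool 1. Ighv1-72 had a log2 difference of -3.21 with all libraries (SE 1.29, edgeR adjusted p = 0.064) and 1.13 without female pool 1, so its direction rested on female pool 1.

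Of the 8 segments with the smallest p, several were low in every library. Ighv8-8 had 0, 0, 0.0443 and 0.0256 CPM in the pools and 0.694, 0.685, 0.951 and 1.46 CPM in the flushed libraries. The groups did not overlap, and the log2 difference was 5.64 (SE 0.62, edgeR adjusted p = 8.9e-05). Igkv1-117 had 0.703, 0.230, 0.0664 and 0.204 CPM in the pools and 2.50, 1.90, 6.58 and 2.56 CPM in the flushed libraries, an 11.2-fold higher level (log2 difference 3.49, SE 0.43, edgeR adjusted p = 0.00018).

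Ighv1-69 had a count of 0 in every pool and between 0.225 and 0.645 CPM in the flushed libraries. Against a floor of 3 counts over the 4 pools (0.0384 CPM), its level from summed counts was at least 11.7-fold higher in flushed libraries, and at least 10.1-fold higher without flushed female 2. A segment at 0 in all pools passes the filter through the flushed libraries alone, so no p is given for it, and 5 of the 29 were of this kind. Igkv1-135 was the most even of the 8 with the smallest p, at 0.505, 0.509, 0.409 and 0.585 CPM in the flushed libraries and 0.162, 0, 0 and 0 CPM in the pools (log2 difference 3.51, SE 0.73, edgeR adjusted p = 0.0033). Ighv1-61 had at most 0.108 CPM in a pool and between 0.238 and 1.12 CPM in the flushed libraries (log2 difference 3.61, SE 0.66, edgeR adjusted p = 0.0015). Ighv8-8, Igkv1-135 and Ighv1-61 had at most 0.162 CPM in any pool, so they too passed the filter through the flushed libraries. Their p-values carry that selection and are given as a description, and those of others of the 29 may carry it too.

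The other 3 of these 8 were uneven. Iglv1 was higher by 4.44 on the log2 scale (SE 0.89, edgeR adjusted p = 0.0027), with 67.5% of its summed CPM in flushed male 1. Ighv1-82 was higher by 5.22 (SE 1.07, edgeR adjusted p = 0.0029) and had 1.31 CPM in flushed male 1 and 22.6 CPM in flushed male 3. Ighv1-54 was not counted in any pool and had 0.378, 2.35, 36.7 and 4.45 CPM in the flushed libraries, at least 294-fold above the floor from summed counts, and at least 61.1-fold without flushed male 1. Among other leaders of 1 library, Ighv1-74 (log2 difference 7.44, edgeR adjusted p = 0.0059), Ighv5-17 (7.03, adjusted p = 0.0082), Ighv8-12 (3.34, adjusted p = 0.019) and Igkv4-91 (5.12, adjusted p = 0.029) passed as well. Ighv1-74, Ighv5-17 and Igkv4-91 were named because they were among the leading segments of a flushed library in these same counts. Their differences and p-values carry that choice and are given as a description. The difference was 3.87 for Ighv1-74 without flushed male 3, 3.72 for Ighv5-17 without flushed male 1, and 1.91 for Igkv4-91 without flushed male 3. The calls of Ighv8-12 and Igkv4-91 were each lost in 4 of the 8 fits that left out 1 library. The leaders Igkv3-5, Igkv8-19, Ighv1-62-2 and Ighv1-71 did not pass the filter on low counts, and no test was made of them.

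Several widespread segments did not pass the test. Ighv1-26 had 0.243, 1.49, 0.435 and 0.204 CPM in the pools and 0.925, 9.33, 1.12 and 0.585 CPM in the flushed libraries, so the groups overlapped (log2 difference 2.10, SE 0.96, edgeR adjusted p = 0.098). Igkv10-96 had a log2 difference of 2.33 (SE 1.03, edgeR adjusted p = 0.090), Ighv1-53 one of 2.09 (SE 0.83, edgeR adjusted p = 0.061) and Igkv12-46 one of 0.72 (SE 0.67, edgeR adjusted p = 0.41). The result for Igkv10-96 depended on the method. It passed with DESeq2 (3.33, DESeq2 adjusted p = 0.038), with preparation as the only term (2.68, edgeR adjusted p = 0.0415) and with no filter. It did not pass without TMM, with counts rounded down or with library sizes that left out immunoglobulin genes. Without female pool 1, Igkv10-96, Ighv1-53 and Igkv12-46 passed, with log2 differences of 5.38, 3.26 and 1.96, and without male pool 2 Ighv1-26 passed, with one of 3.59 (edgeR adjusted p = 0.015). Without flushed female 3 the difference was 0.55 for Ighv1-26 and 0.53 for Ighv1-53, so both rested largely on that mouse. Igkv10-94, which was highest in female pool 1, had a log2 difference of -1.62 (SE 1.27, edgeR adjusted p = 0.32), which turned to 1.52 without that pool (edgeR adjusted p = 0.15).

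Between males and females, 0 of the 54 segments differed in the edgeR fit, where 0.116% of all genes did. An unadjusted p under 0.05 was found for 19 segments. The share of all genes at that unadjusted cut is not given, so the 19 are not read further. DESeq2 called 1, Ighv9-3, lower in males (log2 difference -3.20, DESeq2 adjusted p = 0.012). The median log2 difference, male minus female, was -0.32 over the 54 segments and -0.0029 over all genes tested. Of segments with large values in 1 sex, Ighv1-74 had a log2 difference of 4.61 (SE 1.31, edgeR adjusted p = 0.41) and Ighv1-72 one of -3.86 (edgeR adjusted p = 0.52), and each was high in 1 library alone. The interaction of sex and preparation passed for 0 of 54 segments in the edgeR fit, beside 0.0485% of all genes, and DESeq2 called 0. An unadjusted p under 0.05 was found for 7 segments, again with no share of all genes to set beside it. Each group of the interaction held 2 libraries.

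V signal was set beside the constant genes of the same locus, which were counted apart from it. Kappa V segments had 106.33, 75.99, 952.09 and 41 counts in the pools and 1606.66, 1401.99, 1928.58 and 2197 in the flushed libraries. Igkc, the only kappa constant gene, had 92, 73, 934 and 49 counts in the pools and 1799, 1588, 2488 and 1894 in the flushed libraries. The ratio of kappa V to Igkc counts thus stayed between 0.775 and 1.16 while the V counts differed by more than 10-fold, and female pool 1 followed the same ratio (1.02). For lambda the ratio was 0.3 to 0.976, and flushed male 1 lay within it at 0.782.

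The heavy locus differed. The ratio of heavy V to heavy constant counts was 0.185, 0.143 and 0.110 in male pool 1, male pool 2 and female pool 2, 0.342 in female pool 1, and between 0.303 and 0.392 in the flushed libraries. In the 3 pools with the lower ratio, Ighm, the constant gene of immunoglobulin M, held 63.7, 68.5 and 76.7% of heavy constant counts. It held 16.2% in female pool 1 and between 5.2 and 18.5% in flushed libraries. These ratios are of counts and not per length, so they serve to compare libraries and not genes.

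Igha, the constant gene of immunoglobulin A, followed the V signal. It had 7.08, 6.26, 95.3 and 3.53 CPM in the pools and 130, 111, 123 and 135 CPM in the flushed libraries (log2 difference 2.57, edgeR adjusted p = 0.026). Ighg2c, a constant gene of immunoglobulin G, did not follow it in female pool 1, where its level was 0.0443 CPM. Its range was 0.0443 to 0.270 CPM over the 4 pools and 37.2 to 145 CPM over the flushed libraries. Female pool 1, with V signal of 88.4 CPM, thus had Igha and almost no Ighg2c, whereas every flushed library had both. Of the 12 constant genes listed, 10 were tested, 5 were higher in flushed libraries (Ighg2c, Igha, Igkc, Iglc1 and Iglc2) and 0 were lower.

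**Figure D5:**
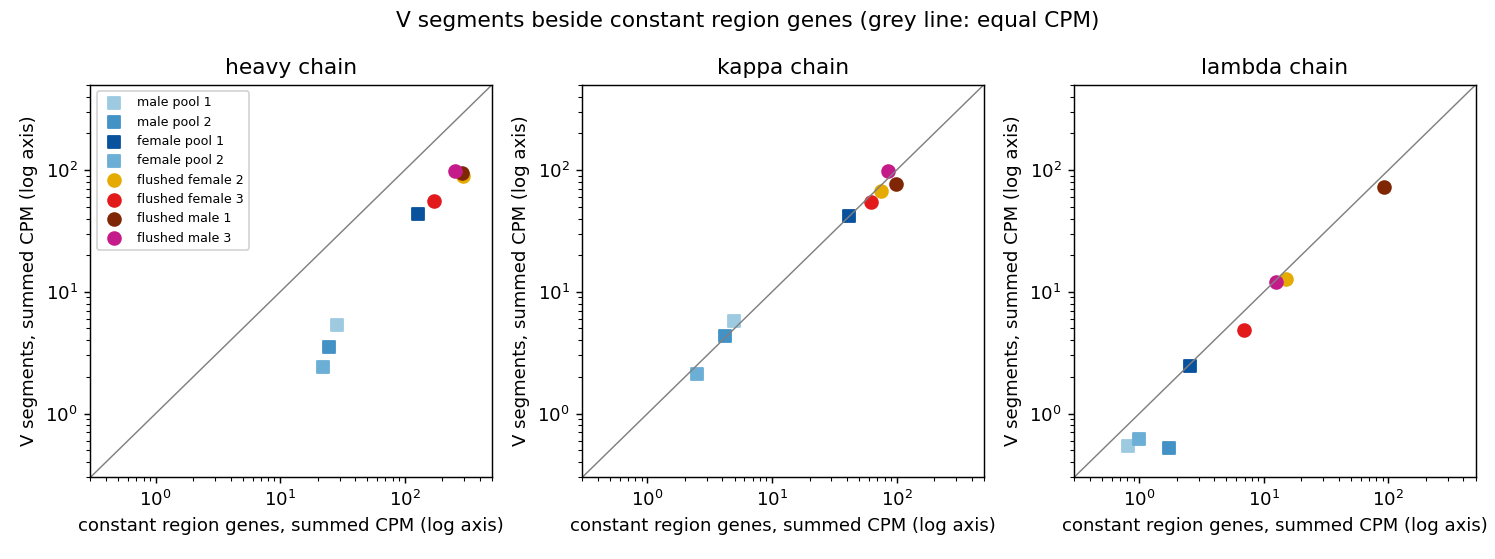
Summed CPM of V segments (vertical axis, log scale) against summed CPM of the constant genes of the same locus (horizontal axis, log scale), for the heavy, kappa and lambda loci, with 1 point per library, squares for pools and circles for flushed libraries. The grey line marks equal CPM. Kappa points lie along the line over the whole range, and in the heavy panel the 3 pools other than female pool 1 lie farther below it than the other libraries.

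Markers of the cells that use V segments did not all move with them. Jchain, which links the units of secreted immunoglobulin A and M and marks plasma cells, had 4.11, 3.27, 31.7 and 1.99 CPM in the pools and 82.8, 53.2, 113 and 91.6 CPM in the flushed libraries (log2 difference 3.13, edgeR adjusted p = 0.0044). Mzb1, a chaperone of antibody secretion, was higher by 1.02 on the log2 scale (edgeR adjusted p = 0.044), with 1.33 CPM in female pool 1, and Slamf7 by 0.62 (edgeR adjusted p = 0.016). Of the 15 plasma cell genes 14 were tested, 3 were higher and 6 lower in flushed libraries. Beside each list of genes stand the 22.6% of all genes that were higher and the 22.9% that were lower. The share of plasma cell genes that were higher was close to that of all genes, and the share that were lower was above it. The 6 lower ones were Sdc1, Xbp1, Derl3, Fkbp11, Txndc5 and Creld2. The summed level of the list, 694 to 908 CPM, was mostly theirs. Which cells their RNA came from was not tested. Tnfrsf17, a receptor of plasma cells, had at most 0.354 CPM in any library, its highest value being in female pool 1.

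B cell markers went the other way. Of 14 B cell genes 13 were tested, 0 were higher and 7 were lower in flushed libraries, among them Cd79a, a signalling chain of the B cell receptor (0.690 to 1.15 CPM in pools, 0.315 to 0.674 CPM in flushed libraries, edgeR adjusted p = 0.013). The summed level of the list was 20.5 to 28.4 CPM in pools and 9.34 to 19.6 CPM in flushed libraries. Flushed female 2 had the lowest B cell sum and a V signal of 169 CPM. Of 7 precursor genes, which include the recombination enzymes Rag1 and Rag2, 4 were tested and Il7r alone was higher. The others tested had log2 differences below 0, at -1.21 for Rag1, -1.49 for Dntt and -0.78 for Igll1. None of them passed, and Rag2 was not tested. Of 7 germinal centre genes 5 were tested and S1pr2 alone was lower.

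Blood and other immune cells moved with the preparation too. Of 7 erythroid genes 7 were lower in flushed libraries, with a summed level of 1646 to 2053 CPM in pools and 105 to 621 CPM in flushed libraries. Of 8 neutrophil genes 8 were lower (8586 to 11730 against 6586 to 9031 CPM). Ltf alone had 8359 to 11412 CPM in pools and 6554 to 8984 CPM in flushed libraries, so the neutrophil sum was mostly Ltf. Of 12 T cell genes 9 were higher and 0 lower in flushed libraries. Their summed level was 10.6, 10.2, 23.2 and 9.15 CPM in the pools and 31.8, 26.7, 26.4 and 24.2 CPM in the flushed libraries. Female pool 1 thus stood apart from the other pools in this sum, as it did in V segments. Not every T cell gene did so, since Trac had 0.531 CPM in female pool 1 and 0.540 CPM in male pool 1. V segments of the T cell receptor had 4.76 CPM in female pool 1, 0.971 to 2.07 CPM in the other pools and 3.13 to 4.35 CPM in the flushed libraries. The part of these cells in the V signal was not tested.

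Genes of antibody transport were set beside these. Of 12 genes for transport and plasma cell homing 10 were tested, 3 were higher and 2 lower in flushed libraries, shares close to the 22.6 and 22.9% of all genes. Pigr, which carries immunoglobulin A across epithelium, was lower (485 to 689 CPM in pools, 368 to 425 CPM in flushed libraries, edgeR adjusted p = 0.0015), as was Fcgrt, the neonatal Fc receptor (edgeR adjusted p = 0.00022). The chemokines Ccl28 (log2 difference 0.57, edgeR adjusted p = 0.049) and Ccl25 (0.46, edgeR adjusted p = 0.00096) and the adhesion molecule Vcam1 (0.51, edgeR adjusted p = 0.0014) were higher. Of 6 genes of vomeronasal neurons, 5 were tested, 0 were higher and 2 lower, and their summed level was 836 to 1065 CPM over the 8 libraries, so markers of the labelled tissue were present in each. Omp, the marker of mature olfactory and vomeronasal neurons, had 341 to 484 CPM, and Trpc2, the ion channel of vomeronasal neurons, was listed at 0 in all 8. The cause of that 0 was not tested, and it is not read as absence of Trpc2 RNA.

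D and J segments, which the annotation lists as genes of their own, had few counts. The 20 D segments had a summed level of at most 0.0885 CPM in any library, and 18 of them had a count of 0 throughout. The 4 heavy J segments had a summed 0.459 to 0.974 CPM in pools and 1.02 to 1.62 CPM in flushed libraries, and the 1 of them that was tested, Ighj4, was higher (log2 difference 1.54). The 10 light chain J segments had 0.102 to 0.793 CPM.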

How the data were processed

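RNA-seq counts of 8 whole-tissue libraries of mouse vomeronasal epithelium were used. Libraries were polyA-selected, stranded and read as single ends of 100 bases, per the labels' protocols, and no molecular identifiers are described, so intervals cover counting error only. Reads were aligned with STAR 2.7.1a and counted with featureCounts 1.6.5 on GRCm38, per the submitters' processing notes. Values in the deposited files are expected counts, in which a read with several alignments adds a fraction to each gene, with no normalization, per the file headers. A count within 0.005 of an integer was taken as whole.

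The V segments, gene lists and tests were chosen with earlier results of these data known. Rounded counts went into edgeR 4.0.16 under R 4.3.3 (quasi-likelihood F test, TMM, filterByExpr on the 4 groups, terms for sex and preparation, an interaction in a further fit), with Benjamini-Hochberg adjustment over all 20601 genes and a threshold of 0.05. CPM uses unrounded counts and TMM-scaled library sizes. Shares, effective numbers (exponential of the Shannon entropy) and the Morisita-Horn index use counts per exon length, and numbers at a matched depth use rounded counts. Sequences are GENCODE M21 transcripts. Replicates are separate mice or pools, per the labels, with 2 libraries in each group.

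The text names the 3 leading segments of each library, the 8 with the smallest p for preparation, all lambda segments, the leading heavy and kappa segments of the pools, 5 of those detected everywhere, those at the threshold, and up to 3 genes of each marker list by p. Igkv13-85, Ighv1-62-3, Ighv9-3 and further marker genes were named after their values were seen. Alternatives were DESeq2 1.42.0, no TMM, no filter, rounding down, preparation as the only term, library sizes without immunoglobulin genes, other thresholds and diversity measures, and each library left out. The 495 genes whose identifier had no symbol in GENCODE M21 hold 0.08% of counts and were kept in the fit.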

Additional observations from a re-analysis of the deposited data

Results flagged for a closer look

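Samples far from the others of the same preparation were looked for among the named segments and the summary values of each library, by the gap to the nearest of the other 3 libraries relative to the whole range. Of 84 groups of 4 libraries 35 stood out. Chance gives about 1 in 20 for segments chosen without regard to their values, but many of these were named because they led 1 library, and some flags set 1 count or less against 3 values of 0, so the number of flags shows nothing by itself. They are given as values, and their causes were not tested.

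Female pool 1 was far from the other pools in the summed V level, at 88.4 CPM. It was far above them for Igkv10-94 (12.8 CPM), Ighv1-72 (11.9 CPM), Ighv1-9 (5.53 CPM), Igkv10-96 (3.59 CPM), Iglv1 (2.10 CPM), Ighv1-53 (1.01 CPM) and Igkv4-91 (0.708 CPM). At levels of a few counts it was also apart for Igkv10-95 (0.354 CPM), Igkv3-5 (0.177 CPM), Ighv1-63 (0.133 CPM), Ighv1-71 (0.0664 CPM), Ighv1-62-2 (0.0221 CPM) and Ighv9-2 (0.0221 CPM). Male pool 1 was apart for Igkv1-135 and Ighv5-16 (0.162 CPM each). Female pool 2 was apart for Ighv1-78 (0.0511 CPM) and Ighv1-66 (0.0256 CPM).

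Among the flushed libraries, flushed male 1 was apart for Iglv1 (63.5 CPM), Ighv1-54 (36.7 CPM), Ighv5-17 (24.7 CPM), Iglv2 (8.46 CPM) and Igkv1-117 (6.58 CPM). Flushed male 3 was apart for Ighv1-74 (53.3 CPM), Igkv4-91 (43.5 CPM) and Ighv1-66 (0.382 CPM). Flushed female 2 was apart for Igkv3-5 (31.3 CPM), Ighv1-62-2 (29.1 CPM) and Ighv1-71 (25.3 CPM), of which Ighv1-62-2 and Ighv1-71 share their sequence. Flushed female 3 was apart for Igkv8-19 (12.01 CPM), Ighv1-26 (9.33 CPM), Ighv8-12 (8.19 CPM), Ighv1-53 (4.82 CPM) and Ighv1-78 (0.353 CPM), and it was the most diverse flushed library, with an effective number of 48.9 segments.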

How the results depend on the processing

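The number of segments higher in flushed single mice was 26 with DESeq2 and 29 to 31 without TMM, with counts rounded down, with preparation as the only term and with library sizes that left out immunoglobulin genes. With no filter on low counts it was 80, with 10 lower, 54 differing by sex and 20 with an interaction, over 130 segments in place of 54. In that fit 5395 of 32514 genes were higher and 4543 lower in flushed libraries. By sex 327 genes were higher and 457 lower in males, and the interaction was positive for 118 and negative for 145. That fit includes segments with few counts, so its calls are not read as results about the segments. Without TMM log2 differences of all genes shifted by 0.11 toward flushed libraries, and 6070 genes were higher and 2862 lower, against 4656 and 4721. With 1 library left out, 27 to 47 were higher, 0 to 8 were lower, 0 to 3 differed by sex and 0 to 1 had an interaction. Such fits refilter the genes, and the one library left in its group is assumed to vary like the others. Their counts of calls are therefore not read as results about the segments. Sex calls in these fits were Igkv6-25, Igkv8-19, Igkv3-12, Igkv3-5, Ighv1-62-2, Ighv1-71, Ighv1-74, Ighv1-5 and Iglv2, in 5 of the 8 fits, and the interaction call was Igkv8-30. DESeq2 called 1 segment by sex. With 1 library left out, the preparation difference ran from -2.30 to 1.52 for Igkv10-94 (-1.62 with all), -3.95 to 1.13 for Ighv1-72 (-3.21) and -2.88 to 2.39 for Ighv1-9 (-1.79). In these fits the sign of the 3 turned only without female pool 1, where none passed the threshold.

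The mean effective number, 25.6 in flushed libraries and 38.0 in pools, was 18.0 and 24.6 for segments with a total of 50 or more, 11.6 and 19.1 within the heavy locus, 14.4 and 17.4 within kappa and 13.2 and 26.1 as an inverse Simpson index. Over the 45 segments with whole counts the order turned, at 16.2 in flushed libraries and 14.4 in pools, and the cause was not tested. The mean share of the leading segment, 20.03% in flushed libraries and 11.9% in pools, was 36.2 and 23.0% within heavy, 34.7 and 20.6% within kappa, and 32.4 and 19.6% over segments with whole counts. The number detected, 111 and 62.5 on average, was 86.5 and 31.8 from a count of 3, 44.5 and 9.0 from a count of 10, and 63.5 in flushed libraries for totals of 50 or more. At a matched depth the flushed mean, 29.6, was 105.7 at 2954 counts. At 1/2 of the smallest total it was 19.8, and the pool mean was 27.9. Merging Ighv1-62-2 and Ighv1-71, chosen after seeing the data, moved the flushed mean share from 20.03 to 23.7%. Restricting to annotated genes changed nothing, since all 130 segments are such genes.

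No paired analysis was possible because the labels number no pools (their numbers follow the listed order and pair nothing), and flushed females and flushed males share 1 number from the labels. Depth limits the 3 pools with 100 to 214.83 V counts, where leaders rest on 8 to 26 counts.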
